A study of Mus musculus with 384 samples.

Results

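Accessible chromatin was measured in a mouse breast tumor, and the windows described here lay at CpG-rich promoters of protein-coding genes with starts on a single strand. A window was a member when its centre lay within 1 kb of the start of a protein-coding transcript, when its observed number of CpG dinucleotides was at least 0.6 of the number given by its base composition (CpG observed/expected), and when every protein-coding start within 1 kb lay on the same strand. Of the 50000 accessible windows of 500 bp, 7064 met this rule. A further 1055 CpG-rich windows had protein-coding starts on both strands (divergent) and 3633 windows within 1 kb of a start were CpG-poor, which together made 11752 promoter windows.

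The tumor came from the PyMT model, in which a mouse mammary tumor virus promoter drives the polyoma middle T oncogene in mammary epithelium. By the methods, the mouse was perfused with fixative at an age of 3 months, before the tumor was dissected and digested. Its cells were permeabilized, stained against EpCAM, which holds epithelial cells together, and CD45, a phosphatase of leukocytes, and sorted into single wells of 4 plates with 96 wells each for Pi-ATAC, which reads transposase-accessible DNA and protein stain in the same cell. All wells carried the same labels and so formed 1 group, with no second genotype or treatment. The processed data used here were 1 window list called on aggregated cells, without a score, a read count or a replicate, so the depth was unknown, no test between conditions was possible, and epithelial cells could not be told apart from leukocytes. Among the genes that define the stained types, the epithelial genes Epcam, Krt8 and Krt18 and the leukocyte gene Ptprc, which encodes CD45, had 0 windows within 1 kb of a start, but 9, 4, 3 and 4 within 50 kb. Cdh1, the epithelial cadherin, had 2 within 1 kb, and the leukocyte genes Ikzf1, Laptm5 and Coro1a had 2, 2 and 4. Shares below carry exact binomial (Clopper-Pearson) 95% intervals, and differences of shares carry Newcombe 95% intervals. Both cover counting error only, and genes are not replicates of a condition. The gene lists and words compared below were chosen with earlier results of these data known.

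CpG is scarce in most of the mouse genome, because methylated cytosine is prone to mutate to thymine, and dense in short stretches, called CpG islands, that escape methylation. Such islands hold the promoters of most genes used by every cell and of many developmental regulators. At the former, SP, Ets-family, NF-Y, NRF1 and YY1 factors bind short words close to the start, whereas at the latter Polycomb complexes can hold the island in a repressed state with the DNA still unmethylated. These promoters rarely have a TATA box and often start transcription at many positions.

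The 8 stretches printed first each show 1 of the words compared below, in promoters of genes with a member window. The GC box is not among the marked words. Each is the 120 bp before a protein-coding start, 5′ to 3′ on the strand of the gene, in mm9 and outside annotated exons. Capitals mark the word named after the gene, on either strand. All but 1 of these stretches lay wholly inside a member window. The exception was Ran, the small GTPase of nuclear transport, whose member window was centred at -487 bp from the start, at chr5:129525207-129525706.
Atf6b, Ets, chr17:34783971-34784090, plus strand: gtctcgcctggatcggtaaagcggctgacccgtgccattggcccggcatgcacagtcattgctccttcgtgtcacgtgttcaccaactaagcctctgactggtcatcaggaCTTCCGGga
Ran, NRF1, chr5:129525824-129525943, plus strand: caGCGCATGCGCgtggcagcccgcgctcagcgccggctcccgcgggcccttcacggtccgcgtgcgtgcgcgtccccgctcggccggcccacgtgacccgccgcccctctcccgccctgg
Cry1, CCAAT box, chr10:84647800-84647919, minus strand: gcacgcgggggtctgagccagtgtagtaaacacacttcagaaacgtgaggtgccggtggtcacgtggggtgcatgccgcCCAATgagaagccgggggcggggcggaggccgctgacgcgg
Atg5, cyclic AMP element, chr10:43988044-43988163, plus strand: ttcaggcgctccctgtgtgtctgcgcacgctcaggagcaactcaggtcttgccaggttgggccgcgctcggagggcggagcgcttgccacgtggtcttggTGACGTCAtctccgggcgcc
Farsa, YY1, chr8:87380768-87380887, plus strand: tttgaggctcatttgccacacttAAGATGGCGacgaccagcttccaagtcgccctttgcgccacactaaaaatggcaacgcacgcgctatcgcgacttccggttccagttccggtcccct
Eif3f, E box, chr7:116077811-116077930, plus strand: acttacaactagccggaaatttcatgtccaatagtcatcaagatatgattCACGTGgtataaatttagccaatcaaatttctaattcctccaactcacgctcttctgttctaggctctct
Polr2a, TATA box, chr11:69572140-69572259, minus strand: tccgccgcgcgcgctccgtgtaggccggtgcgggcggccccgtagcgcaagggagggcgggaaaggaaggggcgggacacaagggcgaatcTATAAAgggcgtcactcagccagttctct
Cwc22, ZNF143, chr2:77784433-77784552, minus strand: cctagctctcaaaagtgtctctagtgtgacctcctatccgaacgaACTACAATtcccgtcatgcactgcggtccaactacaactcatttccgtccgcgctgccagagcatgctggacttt

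These sequences differed in kind. The Ets word of Atf6b, a stress-activated transcription factor of the endoplasmic reticulum, ended 3 bp before the start. The cyclic AMP element of Atg5, a protein of the autophagy conjugation system, ended 13 bp before it. Polr2a, the largest subunit of RNA polymerase II, had a TATA box from -29 to -24, and the CCAAT box of the clock repressor Cry1 lay from -41 to -37. Eif3f, a translation initiation subunit, carried an E box from -70 to -65. Cwc22, a splicing factor, had its ZNF143 word from -75 to -68, and Farsa, a phenylalanyl-tRNA synthetase subunit, had its YY1 word from -97 to -89.

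Member windows were packed at the start and leaned upstream. Their centres had a median position of -27.5 bp (95% interval -32 to -24), with quartiles at -127 and 88 bp, where negative is upstream. Of the 7064 windows, 4114 (58.2%, interval 57.1 to 59.4) were centred upstream, against 50.8% (47.7 to 53.9) of divergent and 46.5% (44.9 to 48.2) of CpG-poor promoter windows. Between 1 and 200 bp, 44.6% of members lay upstream and 25.0% downstream. Beyond 500 bp the order turned, with 3.37% upstream and 6.70% downstream. A member window held the start itself, with its centre within 250 bp, in 75.6% of cases (74.5 to 76.6), against 89.5% (87.5 to 91.3) at divergent and 39.7% (38.1 to 41.3) at CpG-poor promoters. By definition every divergent window had more than 1 protein-coding start within 1 kb, against 49.1% of members and 42.3% of CpG-poor windows. More starts shorten the distance to the nearest, and with starts on both strands its sign depends on which start is nearest. How much of the difference from divergent windows follows from this was not tested. The plot of window positions shows the narrow upstream-leaning mode of the members beside the symmetric one of divergent promoters.

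**Figure D1:**
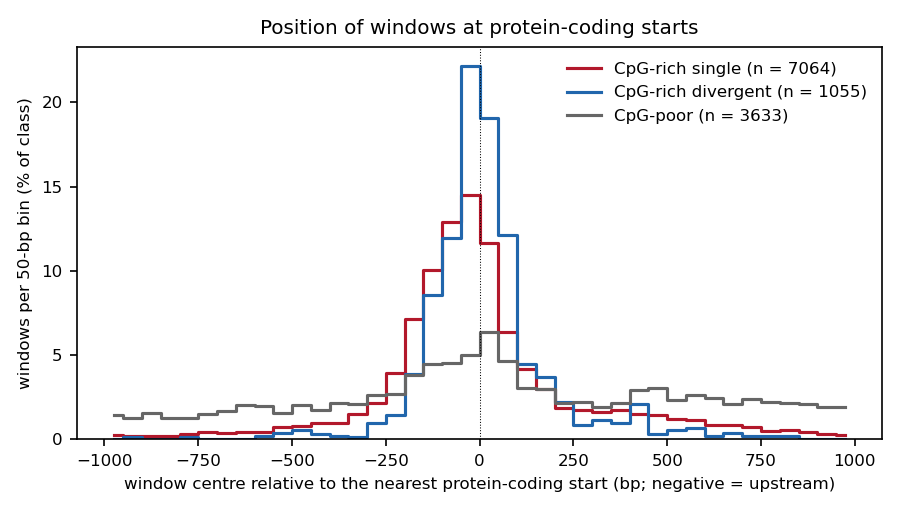
Position of the window centre relative to the nearest protein-coding start (x axis, bp, negative upstream) as a percent of the windows in each class per 50-bp bin (y axis), for 7064 CpG-rich single, 1055 CpG-rich divergent and 3633 CpG-poor promoter windows. Members peak just upstream of the start with a median of -27.5 bp, divergent windows centre on it with a median of -2 bp, and CpG-poor windows spread over the whole range.

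Member windows had a median CpG observed/expected of 0.811, a median GC content of 63.4% and a median of 40 CpG in 500 bp. The first of these follows from the rule. The highest ratios were at Agbl3, a tubulin deglutamylase (1.29, chr6:34730661-34731160), at Zdhhc5, a palmitoyltransferase (1.26, chr2:84555283-84555782), and at Fbl, the nucleolar methyltransferase fibrillarin (1.26, chr7:28954427-28954926). Just inside the CpG threshold were the windows of Zfp174 and Kcnk5, both at 0.60024, and just outside it those of Ppox and Itga1 at 0.599896 and 0.599866. At the distance threshold, Nudt19 (1000 bp) and Hoxa5 (-999 bp) were inside, and Rbms1 (1003 bp) and Vim (1005 bp) were outside. By annotation, 81.6% of members overlapped an untranslated region and 41.3% coding sequence, and 630 (8.92%) had a gene of another type starting on the opposite strand within 1 kb.

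Some of these promoters carried several windows. Each distance below is from the nearest start of that window. Distances within 1 gene can therefore refer to different starts and do not give the spacing of its windows. The members were nearest to 5848 genes, of which 4768 had 1 member window, 958 had 2, 110 had 3, 10 had 4 and 2 had 5. The genes with 5 were Myc, the growth-promoting transcription factor (chr15:61816946-61821929), with centres at -206, -63, 27, 97 and 499 bp, and Cic, a repressor downstream of receptor tyrosine kinases (chr7:26052723-26079178), with centres from -713 to 43 bp. Arrdc3, an arrestin-domain protein of receptor trafficking, had 4 member windows, at -470 to -15 bp from their nearest starts. Camk2d, a calcium-dependent kinase, had 4, the nearest at -76 bp. Epc1, a subunit of a histone acetyltransferase complex, had 4 from -162 to 806 bp. Cic lies on a chromosome where a larger share of called peaks was kept, as described next. Neighbouring member windows of the same gene had centres a median of 522 bp apart (upper quartile 751 bp, 1216 pairs). A member came from a peak split into several summits in 13.4% of cases (12.6 to 14.2), against 23.5% (21.0 to 26.2) at divergent and 7.65% (6.81 to 8.56) at CpG-poor promoters.

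To set windows against promoters without one, every protein-coding gene was scored from sequence alone. Of 22348 genes, 10051 had at least 1 start with a CpG observed/expected of 0.6 or more in the 500 bp around it and protein-coding neighbours on the same strand only. Of these promoters, 6223 (61.9%, interval 61.0 to 62.9) had a window centred within 1 kb, and 5160 (51.3%, 50.4 to 52.3) had one within 250 bp. Any window of the list counted here, also one that was not a member, and 601 of the 6223 genes were not nearest to a member window. Of the 5848 genes nearest to a member window, 5622 were among the 6223. The 3828 promoters outside the 6223 had no window, and the nearest window was over 10 kb away at 64.1% of them and at 1 to 2 kb at 7.16%. A window counted at any start of a gene that met the rule, whereas sequence was read at only 1 of these starts. That was the start with most transcripts and, among equals, the most upstream.

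Chromosomes differed in this share. The list kept 41.5 to 51.8% of the called peaks on chromosomes 7, 8, 9 and X and 23.6 to 26.5% on the other 16 chromosomes. On those 4 chromosomes 1471 of 2096 promoters (70.2%, 68.2 to 72.1) had a window, and without them 4752 of 7955 (59.7%, 58.6 to 60.8) had one. The highest share was on chromosome 8 (76.7%) and the lowest on chromosome 14 (53.6%). Chromosome 16, with 24.9% of its called peaks kept, had 71.6% (66.3 to 76.5), above chromosomes 7, 9 and X at 68.3, 68.3 and 67.4%. Of the member windows, 1707 (24.2%) lay on chromosomes 7, 8, 9 and X. Why more peaks were kept there was not tested.

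**Figure D2:**
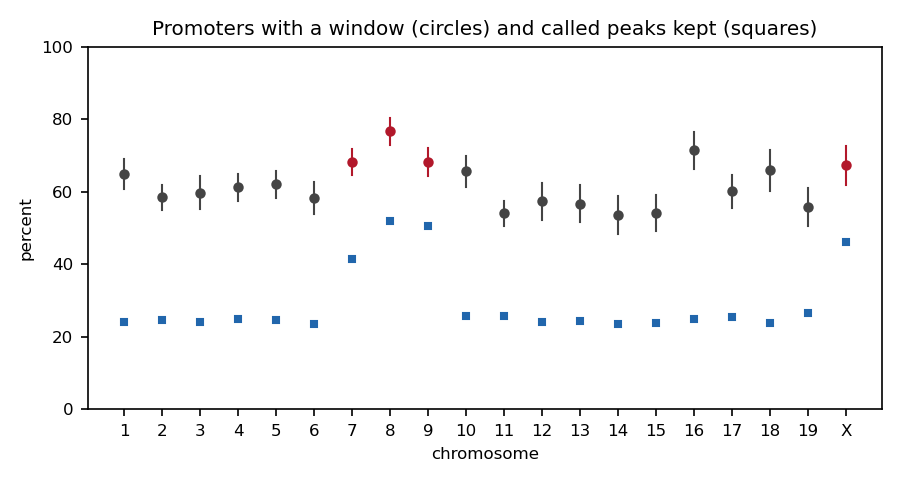
Percent of CpG-rich single promoters with a window within 1 kb (circles, bars are exact binomial 95% intervals, red for chromosomes 7, 8, 9 and X) and percent of called peaks kept in the list (blue squares), by chromosome. Kept peaks stand at 41.5% or above only on chromosomes 7, 8, 9 and X, where 67.4 to 76.7% of promoters had a window, while chromosome 16 reached 71.6% at a kept share of 24.9%.

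Promoters with a window had a higher CpG ratio than those without, with a median observed/expected of 0.839 (95% interval 0.835 to 0.843) against 0.800 (0.793 to 0.807), and the median was higher on 20 of 20 chromosomes. In 5 equal classes of promoters from the lowest to the highest CpG ratio, 50.7, 59.2, 65.6, 66.3 and 67.8% had a window. The CpG-dense stretch around the start had a median length of 800 bp with a window and 700 bp without, and the share with a window went from 49.8% (47.6 to 52.0) in the class with the shortest stretches to 68.5% (66.4 to 70.5) in that with the longest. GC content alone did not order the promoters in this way, since the classes of lowest and highest GC content had shares of 57.2% and 57.6%, with the highest share, 67.0%, in between.

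Strand asymmetry and gene structure also differed. Downstream of the start, the excess of G over C on the coding strand, as a percent of all G and C, had a median of 6.59% (6.25 to 6.86) at promoters with a window and 4.10% (3.63 to 4.55) at those without, and was higher on 18 of 20 chromosomes. Upstream it was -0.860% (-1.23 to -0.552) against 0.738% (0.351 to 1.24). Of promoters with a window, 48.5% (47.2 to 49.7) had 2 or more starts that met the rule, against 39.7% (38.1 to 41.2) without. More starts also give a window more chances to lie within 1 kb. The classes of shortest and longest genes had the lowest shares, 51.9% and 56.9%, and the middle class had 68.2%. A window lay 1 to 10 kb from the start whose sequence was read at all but 53.7% (52.5 to 54.9) of promoters with a window. The same held at all but 64.6% (63.1 to 66.1) of those without. For a gene with several starts this can be the window already counted at another of its starts.

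Genes of basic cell machinery mostly had a window. In 9 lists of such genes, 78.0% of promoters (72.5 to 83.0) had one, beside 61.9% of all CpG-rich single promoters, and 76.6% had one beside 59.7% without chromosomes 7, 8, 9 and X. Taken singly, the DNA replication, aminoacyl-tRNA synthetase, ribosomal protein and spliceosome lists had intervals that included 61.9%. Machinery promoters had a median CpG ratio of 0.886, and the share with a window was larger in classes of higher ratio. In the class of highest CpG ratio 58 of 82 machinery promoters (70.7%, 59.6 to 80.3) had a window. That interval includes the 67.8% of all promoters in the class. Of the machinery promoters with a window, 94.0% (89.7 to 96.8) had a centre within 250 bp of a start, beside 82.9% (82.0 to 83.8) for all promoters with a window.

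Of the DNA repair genes, 20 of 22 had a window. The replication stress kinase Atr had 2 with the nearer at -9 bp, and the mismatch repair gene Msh6 had its window at -138 bp. The exceptions were Brca2 and Rad50, whose nearest windows were at 32501 and -15810 bp. Of the DNA replication factors, 17 of 22 (77.3%, 54.6 to 92.2) had a window, including all 5 subunits of the clamp loader (Rfc1 to Rfc5), from -131 to 44 bp. Mcm6, a subunit of the replicative helicase, and Pcna, the sliding clamp, had none, with the nearest window at 1310 and 5429 bp.

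The transcription apparatus showed the same pattern. Of Mediator and RNA polymerase II subunits 25 of 31 had a window, with that of Polr2a 7 bp and that of Med7 4 bp downstream of a start, and of general transcription factors 20 of 24 had one. Tbp, which binds the TATA box, had its window at -16 bp, Taf1 at -124 bp and Gtf2b at -73 bp, whereas Ercc2, a helicase of the initiation factor that opens DNA, had its nearest at -3692 bp. Of nuclear transport receptors 21 of 25 had a window. The exportin gene Xpo1 had 3 windows within 1 kb, the nearest at -396 bp.

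Genes of protein synthesis and splicing made up the remaining machinery lists. Of aminoacyl-tRNA synthetases 13 of 15 had a window, with Mars at -127 bp and 3 windows, and of translation initiation factors 23 of 28 had one. Of the cytosolic ribosomal protein genes 43 of 63 (68.3%, 55.3 to 79.4) had a window, and 24 of 41 (58.5%) without chromosomes 7, 8, 9 and X, which is on either side of the respective backgrounds. Rplp0 had it at -21 bp and Rps6 at -23 bp, while Rpl3, Rpl13a and Rps2 had none within 1 kb, and Rpl38 missed the limit at 1098 bp. Ribosomal protein genes have many processed copies in the genome, whose part in these counts was not tested. Of spliceosome components 17 of 25 (68.0%, 46.5 to 85.1) had a window, among them Sf3b1 with the nearest at -87 bp and Prpf8 at -10 bp, and Snrpb, Srsf3 and U2af1 had none.

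Of promoters in 5 lists of signalling, stress and chromatin genes, 83.7% (75.1 to 90.2) had a window, beside 61.9% of all promoters, and 80.7% (70.6 to 88.6) without chromosomes 7, 8, 9 and X, beside 59.7%. In the class of highest CpG ratio 29 of 36 (80.6%, 64.0 to 91.8) had a window, with the tissue lists below included. Of all promoters in that class 67.8% had one. Of autophagy genes 21 of 22 had one, and only the kinase Ulk2 lacked it, while its paralog Ulk1 had it at -163 bp, the lipid kinase partner Becn1 at -33 bp and the lipidated Map1lc3b at -10 bp. Of heat shock and chaperone genes 14 of 15 had one, and only the mitochondrial Hspa9 lacked it. The endoplasmic reticulum chaperone Hspa5 was counted for a window 946 bp downstream. Of unfolded protein response genes 18 of 22 had a window, with the splicing-activated factor Xbp1 at 72 bp and the chaperone Calr at -42 bp, whereas the factors Atf4 and Atf6 and the sensor kinase Eif2ak3 had none. Of circadian clock genes 15 of 19 had one, with Clock at -147 bp, Per1 at -152 bp and Per2 at -105 bp. The intervals of the unfolded protein response (59.7 to 94.8) and circadian clock lists (54.4 to 93.9) both included 61.9%. The histone acetyltransferase and methyltransferase genes counted 19 of 26 (73.1%, 52.2 to 88.4, an interval that includes 61.9%), among them Ezh2, the Polycomb methyltransferase, at 130 bp, and 11 of 18 (61.1%) without chromosomes 7, 8, 9 and X, which is near the 59.7% of all promoters there.

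The tissue lists were small. Of 13 epithelial genes with such a promoter 9 had a window (69.2%, 38.6 to 90.9, an interval that includes 61.9%), and 5 of 9 (55.6%) without chromosomes 7, 8, 9 and X, below the 59.7% of all promoters there. Cdh1 had its nearest at -7 bp, the splicing regulator Esrp2 at 8 bp, the serine protease St14 at 12 bp and the luminal factor Gata3 at -201 bp. Claudin genes Cldn3 and Cldn7, the keratin gene Krt7 and the transcription factor Grhl2 had none, with the nearest window at -20097, 15288, 17071 and 19946 bp. Of 20 leukocyte genes only 4 had a CpG-rich single promoter, the transcription factors Ikzf1, Runx1, Runx3 and Fli1, and all 4 had a window, at -69, -195, -161 and -89 bp. The interval of this share, 39.8 to 100%, also includes 61.9%.

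Developmental, germline and neuronal genes rarely had a window. In 7 lists of such genes 19 promoters (12.8%, 7.91 to 19.3) had one, beside 61.9% of all promoters, and 13 (10.2%) without chromosomes 7, 8, 9 and X. With a reach of 2 kb the share was 19.6% (13.5 to 26.9), beside 64.5%. Their promoters had a lower CpG ratio, with a median of 0.800 against 0.886 for machinery genes. In the class of all promoters with the highest CpG ratio, where 67.8% had a window, the restricted lists had 4 of 20 (20.0%, 5.73 to 43.7) and the machinery lists 58 of 82 (70.7%, 59.6 to 80.3). The windows that the restricted genes had also lay farther out, with 8 of 19 (42.1%, 20.3 to 66.5) within 250 bp of a start, against 94.0% for machinery genes and 82.9% for all, so that 5.41% (2.36 to 10.4) of all restricted promoters had a window that close, beside 51.3%.

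**Figure D3:**
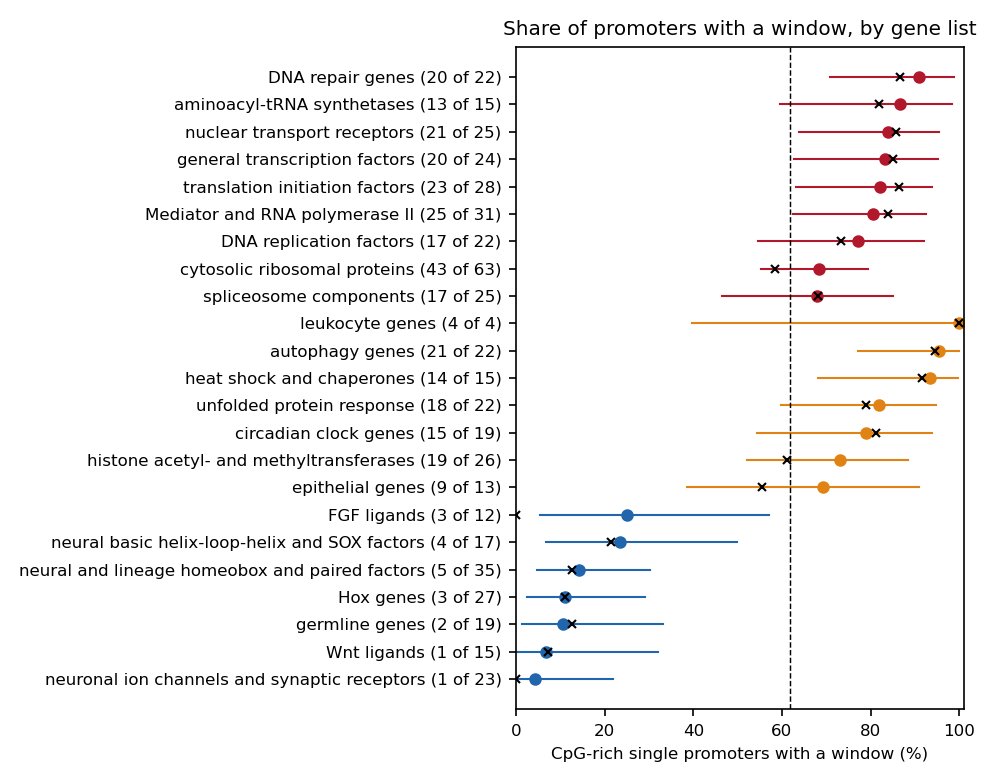
Percent of CpG-rich single promoters with a window within 1 kb for 23 gene lists (circles with exact binomial 95% intervals, red for cell machinery, orange for signalling, stress, chromatin and tissue genes, blue for restricted genes), with the share without chromosomes 7, 8, 9 and X as crosses and 61.9% over all promoters as the dashed line. The 16 machinery and signalling lists lie between 68.0 and 100%, and the 7 restricted lists lie between 4.35 and 25.0%.

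Of 27 Hox promoters, which set position along the body axis, 3 had a window. Hoxa5 was counted for a window at -999 bp (chr6:52155335-52155834), and Hoxa10 and Hoxd13 each for 1 downstream of a start. Hoxb8, with a CpG ratio of 1.10, had its nearest window at -86227 bp, and Hoxb3, Hoxb6, Hoxb7 and Hoxb9 had theirs at 113371, -103277, -88579 and -75779 bp. Of 15 Wnt ligand promoters only Wnt9b had a window, at -196 bp, and Wnt2, Wnt6, Wnt1 and Wnt5a had their nearest at -1124, 1430, 1577 and -1915 bp. The FGF ligands with a window were Fgf3, Fgf4 and Fgf13, all on chromosome 7 or X, so that 0 of 7 had one on the other chromosomes.

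Of 35 homeobox and paired factor promoters the 5 with a window were Lhx1, Lhx2, Lhx8, Irx2 and Irx3. Irx2 had 3 windows, the nearest at -86 bp, and Irx3 had 2, the nearest at 53 bp. The promoters of Pax2, Pax6, Otx2, Dlx5 and En1 were among those without one, and Dlx6 and Six3 missed the limit at -1205 and 1295 bp. Of 17 neural basic helix-loop-helix and SOX promoters, Sox14, Sox21, Hes5 and Twist1 had a window, the last with 2. Twist1 drives mesenchymal character and Hes5 is a Notch target. Among germline genes the meiotic recombinase Dmc1 (-400 bp) and Tdrd1, a factor of transposon silencing, had a window, and 17 others did not. Of 23 neuronal channel and receptor promoters only Cacna1a, a calcium channel subunit, had one, at -901 bp on chromosome 8. Of the restricted promoters without a window, 10 had the nearest at 1 to 2 kb and 83 (64.3%) over 10 kb away, close to the 64.1% for all promoters without a window.

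The words at the start differed between promoters with and without a window. In all, 23 short words were searched on both strands of the 500 bp around 1 start of each gene. The window of a gene with several starts could thus lie at a start that was not searched. Of the 23 words, 19 had a higher share at the 6223 promoters with a window than at the 3828 without. For 11 words the interval of the difference lay above 0, and for 1 below. The Ets word CCGGAAG was at 24.2% against 15.3% (difference 8.92 percentage points, 7.35 to 10.5, positive on 19 of 20 chromosomes), beside 14.3% of all 22348 protein-coding promoters. The CCAAT box, bound by NF-Y and free of CpG, was at 45.2% against 37.1% (8.09 points, 6.12 to 10.0, 19 chromosomes), beside 47.9% of all promoters. The GC box GGGCGG, bound by SP and KLF factors, was at 86.3% against 80.5% (5.84 points, 4.33 to 7.37, 19 chromosomes), beside 52.7% of all promoters. Read the other way, 72.0% of promoters with an Ets word had a window and 59.3% of those without the word.

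Rarer words went the same way. NRF1 (GCATGCGC) was at 7.47% against 4.99% (2.48 points, 1.52 to 3.42), beside 3.92% of all promoters, and YY1 (AAGATGGCG) at 5.62% against 3.11% (2.52 points, 1.71 to 3.30), beside 2.91%. The full cyclic AMP element TGACGTCA was at 4.68% against 2.64% (2.04 points, 1.29 to 2.76), beside 2.56%, and TCTCGCGAG at 2.11% against 1.18% (0.930 points, 0.417 to 1.42), beside 1.01%. The core ACGTG of the hypoxia element was at 39.6% against 35.2% (4.40 points, 2.45 to 6.33), beside 30.2%. It lies within the E box CACGTG, which had 14.4% against 13.1% with an interval that included 0 (-0.0685 to 2.69 points), beside 10.3%. The TATA box TATAAA was the word with an interval below 0, at 6.88% against 8.05% (-1.17 points, -2.25 to -0.118), beside 16.7% of all promoters. Among the other words E2F (TTTCCCGC, 3.39% against 2.66%), AP-1 (TGANTCA, 5.50% against 4.55%) and PU.1 (GAGGAAGT, 3.26% against 2.56%) had intervals just above 0, beside 2.09, 9.30 and 4.28% of all promoters. The intervals of the remaining words included 0. Besides ZNF143, described with its position, these were CTCF (CCACNAGNG, at 6.93% of all promoters), RUNX (TGTGGTT, 7.48%), IRF (GAAANNGAA, 13.2%), TEAD (GGAATG, 20.5%), FOX (TGTTTAC, 4.29%), STAT (TTCCNGGAA, 1.83%), NF-kB (GGGANTTTC, 1.82%), RFX (GTTGCCATG, 0.823%) and CEBP (TTGCGCAA, 0.291%). A match is a string of letters and not evidence of a bound factor.

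**Figure D4:**
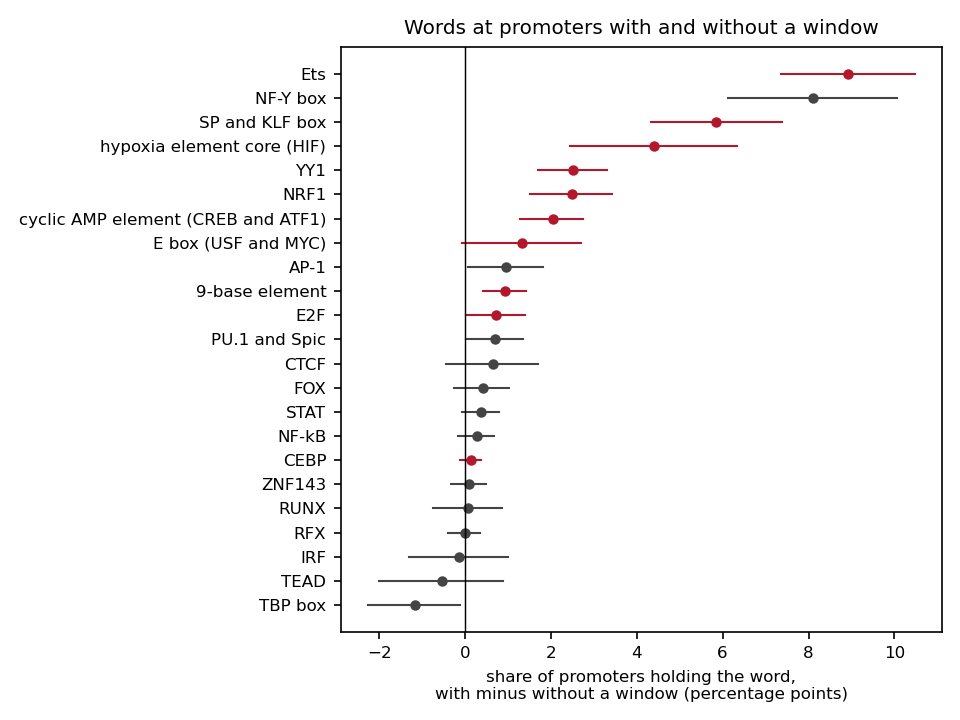
Difference in the percent of CpG-rich single promoters that hold each of 23 words within the 500 bp around the start, 6223 with a window minus 3828 without (x axis, percentage points, bars are Newcombe 95% intervals, red for words that contain CpG). The largest differences are 8.92 points for the Ets word and 8.09 for the NF-Y word (CCAAT), and the TBP word (TATAAA) is lowest at -1.17.

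Words that contain CpG are more frequent where the CpG ratio is high. In the upper 50% of promoters by CpG ratio, the Ets word was still at 25.2% against 16.7% and CCAAT at 40.9% against 32.3%, whereas the GC box narrowed to 90.1% against 88.1%. E2F narrowed to 3.68% against 3.49%. The E box and RUNX words turned there to 14.0% against 14.2% and 3.39% against 3.61%, and IRF and TEAD to 7.99% against 6.92% and 13.3% against 12.0%. RFX, at 0.836% on both sides over all promoters with and without a window, was there at 0.773% against 0.602%. Members also differed in their words from other windows of the list. Within the 500 bp of the window itself, 23.1% (22.1 to 24.1) of members had the Ets word, against 35.0% (32.1 to 37.9) of divergent windows, 8.40% (7.51 to 9.34) of CpG-poor promoter windows and 3.50% of the 38248 windows outside promoters. For AP-1 the shares were 6.74% (6.16 to 7.35) of members, 5.69% (4.37 to 7.26) of divergent windows, 16.7% (15.5 to 18.0) of CpG-poor windows and 21.1% outside promoters, and for the RUNX word they were 4.73% (4.24 to 5.25), 3.70% (2.64 to 5.02), 11.2% (10.2 to 12.3) and 13.2%. Both words were thus less frequent at CpG-rich promoters of either kind than in the other windows, with overlapping intervals for members and divergent windows.

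Several words had a preferred place near the start. At promoters with a window the GC box was most frequent 60 to 41 bp upstream, at 23.2 words per 100 promoters and 20-bp bin against 22.3 without a window. CCAAT peaked 80 to 61 bp upstream, at 8.10 against 4.91, and the Ets, NRF1 and cyclic AMP words in the last 20 bp before the start, at 3.78 against 2.27, 1.54 against 0.993 and 0.707 against 0.470. YY1 lay on the other side. Its words peaked 20 to 39 bp downstream, at 1.33 against 0.836, with 3.54 per 100 promoters in the first 100 bp downstream and 0.707 in the 100 bp upstream. ZNF143 (ACTACAAT), at 1.06% of promoters with a window and 0.967% without, beside 0.958% of all promoters, peaked 80 to 61 bp upstream and had 0 words in the 100 bp downstream. The TATA box pointed with the gene in 100 words in the 100 bp upstream and against it in 32. It lay 40 to 21 bp before the start in sense direction at 57 of 6223 promoters with a window (0.916%, 0.694 to 1.19) and at 31 of 3828 without (0.810%, 0.551 to 1.15), so at the position where it is known to work no difference was detectable.

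**Figure D5:**
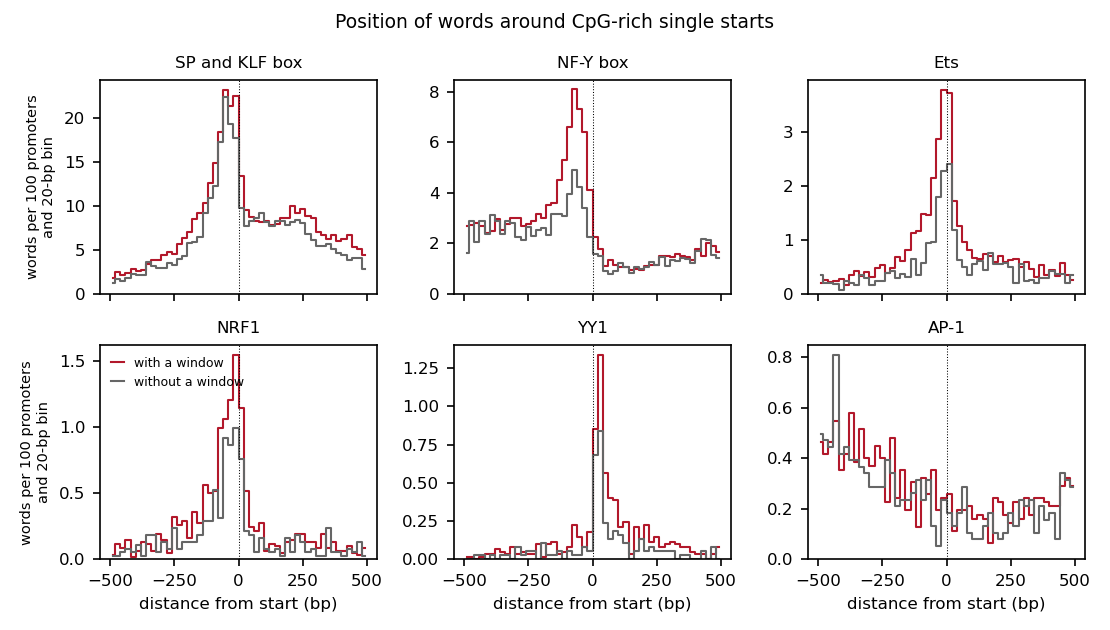
Number of words per 100 promoters and 20-bp bin (y axis) against distance from the start (x axis, bp, negative upstream) for CpG-rich single promoters with a window (red, n = 6223) and without (grey, n = 3828). The NF-Y word peaks upstream (8.10 with and 4.91 without a window), the YY1 word 20 to 39 bp downstream (1.33 and 0.836), and the AP-1 word has no peak at the start.

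Within member windows, words differed in how often they lay near the summit. The central 100 bp make up 20% of a window, and held 37.6% (32.3 to 43.0) of cyclic AMP words, 32.7% (29.3 to 36.2) of NRF1, 30.3% (28.3 to 32.4) of Ets, 29.3% (28.1 to 30.5) of CCAAT and 25.0% (24.4 to 25.7) of GC box words. They held 20.5% (17.0 to 24.2) of AP-1 words, and 14.6% (11.8 to 17.7) of TATA, 15.0% (12.5 to 17.8) of IRF and 16.5% (12.7 to 20.8) of RUNX words. The median position of members was -18 bp for the windows with a YY1 word and -48 bp for the 3271 windows with CCAAT. These are descriptions over words of the same windows. Members were centred near the start, where several words peak, and the part of the start and of base composition in these shares was not tested.

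Words were also counted by gene list. In the 12 lists with at least 15 promoters with a window, all pairs of a list with each of the 23 words were counted. Of these pairs 11 had a 95% interval above the share of all promoters with a window and 1 below, together 4.35% of all pairs, so single pairs are given as a description and no difference between lists is drawn from them. The pairs described here were chosen after their values were seen. CCAAT was at 16 of 18 unfolded protein response promoters (88.9%, 65.3 to 98.6), beside 45.2% of all promoters with a window. E2F, whose factors drive S-phase genes, was at 6 of 17 DNA replication promoters (Cdc6, Gins2, Mcm3, Mcm5, Pold1 and Rfc3) and at 4 of 20 DNA repair promoters (Chek1, Fancc and Msh6 among them), beside 3.39%. The Ets word was at 10 of 17 spliceosome, 11 of 20 general transcription factor, 12 of 25 Mediator and RNA polymerase II and 17 of 43 ribosomal protein promoters, beside 24.2%. YY1 was at 6 of 19 histone enzyme promoters (Ep300, Kat5, Prmt1, Suv39h1, Suv39h2 and Kmt2b), beside 5.62%, and 5 of the 6 words lay within 100 bp downstream of the start. The hypoxia core was at 16 of 23 translation initiation promoters, beside 39.6%. Ribosomal protein promoters held TCTCGCGAG in 5 and the IRF word in 9 of 43, beside 2.11% and 8.90%. The 1 pair below was the GC box at 11 of 17 spliceosome promoters, beside 86.3%.

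CCAAT is part of the endoplasmic reticulum stress element, in which CCAAT and CCACG stand 9 bases apart and which NF-Y and Atf6 read together. This longer word, searched on both strands after the CCAAT count had been seen, was at 5 of 18 unfolded protein response promoters (27.8%, 9.69 to 53.5), namely Calr, Canx, Dnajc3, Pdia6 and Syvn1. It was at 12 of all 6223 promoters with a window (0.193%), at 2 of the 3828 without and at 0.116% of all protein-coding promoters. Dnajc3, Pdia6 and Syvn1, which encode a co-chaperone, a disulfide isomerase and a ubiquitin ligase of this compartment, carried it within the 120 bp before a start and outside exons, in mm9, with the element in capitals. The E2F word of Mcm3, a helicase subunit, and the Ets word of Sf3b2, a splicing factor subunit, follow in capitals.
Dnajc3, ER stress element, chr14:119337034-119337153, plus strand: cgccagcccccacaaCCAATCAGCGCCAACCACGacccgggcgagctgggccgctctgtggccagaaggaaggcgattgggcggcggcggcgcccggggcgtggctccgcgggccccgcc
Pdia6, ER stress element, chr12:17273231-17273350, plus strand: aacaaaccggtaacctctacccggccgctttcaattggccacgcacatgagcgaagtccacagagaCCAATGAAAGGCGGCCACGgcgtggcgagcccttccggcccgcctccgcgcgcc
Syvn1, ER stress element, chr19:6046456-6046575, plus strand: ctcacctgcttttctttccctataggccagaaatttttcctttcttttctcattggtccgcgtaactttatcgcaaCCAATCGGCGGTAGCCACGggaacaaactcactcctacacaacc
Mcm3, E2F, chr1:20810360-20810479, minus strand: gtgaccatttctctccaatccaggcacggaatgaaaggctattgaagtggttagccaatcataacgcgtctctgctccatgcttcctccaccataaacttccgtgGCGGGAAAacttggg
Sf3b2, Ets, chr19:5295456-5295575, minus strand: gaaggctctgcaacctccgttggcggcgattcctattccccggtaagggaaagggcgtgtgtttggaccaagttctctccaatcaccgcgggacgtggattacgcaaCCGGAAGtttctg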

How the data were processed

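Pi-ATAC was run on single cells from a mouse mammary tumor. The deposited file holds window positions (unit other) that the authors called. They trimmed adapters and mapped reads to mm9 (Bowtie2 2.1.0). Duplicates (Picard 1.79), low-quality reads and mitochondrial reads were discarded. They pooled the cells and called summits by MACS2 with q at most 0.05 (MACS2 version: not given in the sources used here). They widened each summit to 500 bp and kept the 50000 windows of lowest q. The list held no score, q value or count, so depth was unknown and the ranking by q could not be checked.

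Positions count from 1 in mm9, with the NCBIM37 sequence and GENCODE vM1 annotation. Called peaks per chromosome were read from the running number in peak names, as a lower bound. The software was Python 3.11.15 with scipy 1.17.1, numpy 2.4.6, matplotlib 3.10.9 and pandas 2.3.3. CpG observed/expected is CpG count times length over C count times G count. CpG-dense stretches joined 200-bp tiles in 100-bp steps with a GC content of at least 50% and a ratio of at least 0.6. Of 727 listed symbols (23 lists), 713 matched by symbol, 5 by alias and 9 not at all. Lists, words and members were chosen with earlier results of these data known. Named genes were list genes, genes with most member windows, windows of highest CpG ratio or next to a threshold, and genes with printed sequence. Printed stretches were, for each of 8 words, the list gene with most different words in the 120 bp, ties by alphabet. Procedures were tested on simulated data. Alternatives changed the promoter distance, CpG threshold, transcripts, overlap, word span and chromosomes. Values of a few single list genes are not reported here.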

Additional observations from a re-analysis of the deposited data

How the results depend on the processing

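In all, 10 results were recomputed. The position of members, the shares with a window of all, machinery and restricted promoters, and the GC box, CCAAT, Ets and NRF1 differences kept their direction. The word span and the upper 50% by CpG ratio were varied for the word differences only. The number of members, 7064, ranged from 4802 at a CpG threshold of 0.75 to 7973 at 0.5, and was 4933 with transcripts of annotation level 1 or 2. Single lists and the other words were not all recomputed, and some turned. Without chromosomes 7, 8, 9 and X the ribosomal protein (58.5%) and epithelial (55.6%) lists lay below the background. The E box, RUNX, IRF, TEAD and RFX differences changed sign in the upper 50% by CpG ratio. No paired analysis was possible because all wells formed 1 group in 1 pooled list. The share of CpG-rich single promoters with a window was 58.1% at a promoter distance of 500 bp, 64.5% at 2 kb, 59.1% at a CpG threshold of 0.5, 65.5% at 0.75 and 59.7% without chromosomes 7, 8, 9 and X. The share of members centred upstream was 60.7% at 500 bp, 57.0% at a threshold of 0.5 and 60.2% at 0.75, and their median position was -33 bp at 500 bp and -23 bp with transcripts of annotation level 1 or 2. The restricted lists had 19.6% at 2 kb. The GC box difference was 10.4 points at a threshold of 0.5, 2.35 at 0.75, 3.17 with level 1 or 2 transcripts and 2.05 in the upper 50% by CpG ratio. The CCAAT difference was 10.1 at 0.75, and the Ets difference 6.77 within 200 bp of sequence. Leaving out each chromosome in turn gave 61.1 to 62.6% for the share with a window, 11.7 to 13.4% for the restricted lists and 77.2 to 79.6% for the machinery lists. Without scores or replicates, a promoter without a window is one that had none among the 50000 kept, which does not show that it was closed. The kept share of called peaks was 41.5 to 51.8% on chromosomes 7, 8, 9 and X and 23.6 to 26.5% on the others. Lacking a window is therefore not the same measure on both, and why the kept shares differed was not tested.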
